A study of Homo sapiens with 11 samples.

Results

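MER41 elements are the copies of an endogenous retrovirus of the ERV1 class that lie scattered through the human genome. All repeat elements of that class whose name gives a MER41 subfamily were taken, which gave 9193 of the 5622516 repeat elements with a value. They fall into 7 subfamilies: 2640 copies of MER41A, 2941 of MER41B, 863 of MER41C, 488 of MER41D, 365 of MER41E and 120 of MER41G, which are long terminal repeats (LTRs), and 1776 copies of MER41-int, the internal part of the virus. Each element is counted as a copy, and elements that may be parts of the same insertion were not joined. Membership was set by names only, but the family was chosen with earlier results of these data known.

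The study used HCT116, an established colorectal cancer cell line. Its 11 libraries come from cells given a small interfering RNA against luciferase (siLuc), which serves as the control, or against Staufen1 (siStau1), a protein that binds double-stranded RNA. Cells received the solvent DMSO or decitabine (DAC), a nucleoside that traps DNA methyltransferases and lowers DNA methylation, at 500 nM over 5 days. RNA bound by J2, an antibody to double-stranded RNA, was sequenced in 1 library of siLuc with DMSO, 1 of siLuc with DAC and 1 of siStau1 with DAC. Total RNA was sequenced in 2 libraries of each of 4 groups, that is, each siRNA with each of DMSO and DAC. No J2 library of siStau1 with DMSO is analysed here, so in J2 RNA the siRNAs are compared only under DAC. Below, the J2 libraries are called the control library (siLuc DMSO), the decitabine library (siLuc DAC) and the siStau1 library (siStau1 DAC), and values listed in a row keep that order. Lower STAU1 RNA was not called in the groups labelled siStau1 in total RNA (values below), so "knockdown" below stands for the siStau1 label and not for a measured loss of Staufen1. The labels of these J2 libraries name J2, but the protocol text describes enrichment by an antibody to Staufen1, so the antibody is not certain. All groups are transfected cells of a single line.

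A full provirus of this kind carries an LTR at each end, which holds the promoter and enhancer, around an internal part with the remains of the viral genes. Most copies in the genome are lone LTRs left after recombination between both ends. LTRs of MER41, MER41B above all, are known as switches that answer to interferon, and a MER41 copy near AIM2 acts as an interferon-gamma-inducible enhancer of that gene. DNA methylation keeps many such LTRs silent, and transcripts from neighbouring or opposed copies can pair into double-stranded RNA that innate immune sensors recognise.

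Reads on repeats numbered 71473124, 68944777 and 83037330 in the control, decitabine and siStau1 libraries. Of these, 36478, 49093 and 56381 reads lay on MER41. In reads per 1000000 reads on repeats (RPM), MER41 had 510 in the control library (95% Wilson interval 505 to 516), 712 in the decitabine library (706 to 718) and 679 in the siStau1 library (673 to 685). The control library was thus the lowest and the decitabine library the highest on this scale. Of reads outside Alu elements MER41 held 0.120%, 0.134% and 0.148%, so on that scale the siStau1 library was the highest. The intervals cover counting error only, and with 1 library a condition no difference between J2 libraries has a replicate check or a test. In bulk RNA, more cells with a MER41 transcript and more transcript per cell cannot be told apart.

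MER41 was a small part of the LTR reads, and its share of them moved less than its share of all repeats. It held 0.950%, 1.07% and 0.973% of the reads on LTR elements. Of the reads on ERV1 elements it held 3.47%, 4.23% and 3.58%. By both measures the decitabine library was again the highest, while the siStau1 library lay close to the control.

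Few MER41 copies gave most of the reads. In any of the 3 libraries 2951 copies (32.1%) had a read, against 34.4% of all repeat elements, and 6242 had none. A read was found on 1938, 1900 and 2264 copies. Thinned to the depth of siLuc DAC the numbers were 1932, 1900 and 2222, so siLuc DAC, with the most MER41 RPM, had the fewest copies detected. Copies with at least 20 reads numbered 385, 516 and 591. The 10 copies with the most reads held 14.3%, 14.8% and 13.6% of MER41 reads, and the first 100 held 48.8%, 48.3% and 46.2%. A copy at 0 is below detection at this depth, with an upper limit of 3 reads, and is not shown to be silent.

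Among the LTR subfamilies MER41A held the most reads in each library. It had 230, 281 and 278 RPM. MER41B followed with 140, 192 and 186. MER41C had 23.9, 39.7 and 39.1, and MER41E 10.7, 21.3 and 21.4. In these 4 subfamilies both DAC libraries lay above siLuc DMSO and close to each other. MER41D, with 10.4, 18.9 and 13.4, and MER41G, with 9.46, 11.7 and 7.98, were lower in siStau1 DAC than in siLuc DAC. The internal part, MER41-int, ranked after MER41A and MER41B with 86.0, 148 and 133 RPM.

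**Figure D1:**
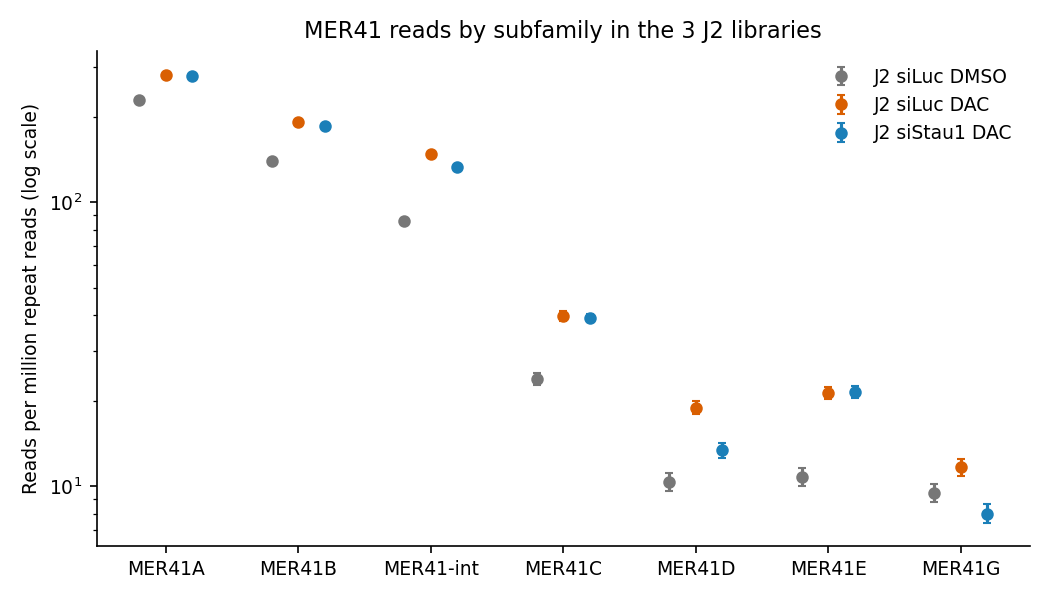
MER41 level in RPM (log axis) for each subfamily, with 1 point per J2 library and bars for the 95% Wilson interval of the count. MER41A, MER41B and MER41-int hold most reads, and the siLuc DMSO point is the lowest in each subfamily except MER41G.

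The composition of the MER41 reads, which does not depend on how libraries are scaled, held less MER41A and more MER41-int in both DAC libraries than in the control. MER41A made up 45.1% of MER41 reads in the control (95% Wilson interval 44.6 to 45.6), 39.5% in the decitabine library (39.1 to 39.9) and 41.0% in the siStau1 library (40.6 to 41.4). MER41-int made up 16.9% (16.5 to 17.2), 20.7% (20.4 to 21.1) and 19.6% (19.3 to 19.9). MER41B, the subfamily best known for its answer to interferon, kept close to the same share, with 27.4%, 26.9% and 27.3%. MER41E went from 2.11% to 2.99% and 3.16%, and MER41C from 4.68% to 5.58% and 5.75%. The intervals of siLuc DMSO do not meet those of either DAC library for MER41A, MER41-int, MER41C and MER41E. They cover counting error only, not the spread between libraries of a condition, and are too narrow if both mates were counted.

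The first pair sets the decitabine library against the control library, both from siLuc cells. Summed over all copies, the log2 ratio of MER41 reads in siLuc DAC over siLuc DMSO was 0.48 (counting interval 0.46 to 0.50), a 1.40-fold difference, with reads scaled to the repeat total of the library. It was 0.31 over all LTR reads and 0.18 over the other ERV1 reads. By subfamily the summed log2 ratio was 0.99 for MER41E (0.86 to 1.11), 0.87 for MER41D (0.74 to 1.00), 0.78 for MER41-int (0.73 to 0.82), 0.73 for MER41C (0.65 to 0.82), 0.46 for MER41B (0.42 to 0.49) and 0.29 for MER41A (0.26 to 0.32). MER41A, the most abundant, thus had a lower ratio than each of these, close to that of all LTR reads. MER41G gave 0.30, but without a single copy, MER41G_1075, it was -0.33. Over LTR12 and HERV9, another ERV1 group, the same log2 ratio was -0.39.

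The size of these ratios rests on the scaling, since reads outside repeats are not in the totals. The authors' own factor per library adds 0.89 to each log2 ratio of this pair, and the median of all repeat elements then goes from 0.01 to 0.90. Scaling to reads outside Alu elements takes 0.32 off, and scaling to LTR reads takes 0.31 off. MER41 summed to 0.16 and 0.17 under the latter scalings, and MER41A to -0.03 and -0.02, so MER41A alone of the 6 subfamilies other than MER41G changed sign.

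Copy by copy, the same direction held for most but not all of MER41. Of 754 copies with at least 20 reads in siLuc DMSO and siLuc DAC together, 298 (39.5%) were at least 2-fold higher in siLuc DAC and 93 (12.3%) at least 2-fold lower. Over all repeat elements 21.3% were higher and 17.0% lower, over all LTR elements 36.1% and 12.6%, and over other ERV1 elements 35.8% and 17.1%. The MER41 shares are therefore apart from those of all repeats and near those of LTR elements in general. With the authors' factors the MER41 counts were 508 higher and 56 lower. The shares over all repeat elements were not counted with these factors, which move the median of all elements to 0.90. The median log2 ratio of these MER41 copies was 0.67, with quartiles of -0.17 and 1.45. The median was 1.06 for MER41-int (n = 135), of which 70 copies were higher and 14 lower, and 0.45 for MER41A (n = 289), with 89 higher and 54 lower. For MER41B (n = 231) it was 0.75, with 94 higher and 19 lower.

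**Figure D2:**
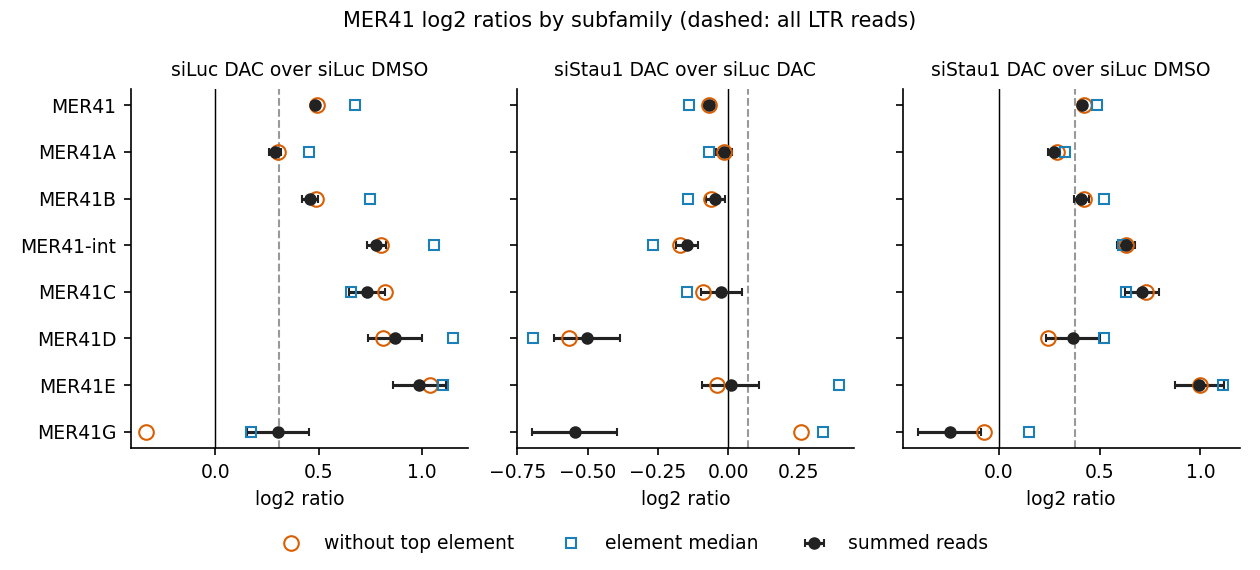
Log2 ratio of reads for MER41 and each subfamily in the 3 pairs of J2 libraries: filled points are summed reads with the counting interval, open circles the sum without the copy with most reads, and squares the median over copies. The dashed line is the ratio of all LTR reads, and MER41G moves from 0.30 to -0.33 in siLuc DAC over siLuc DMSO when its top copy is left out.

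The second pair compares the libraries labelled siStau1 and siLuc under decitabine. Summed MER41 reads were nearly level between siStau1 DAC and siLuc DAC, with a log2 ratio of -0.07 (-0.09 to -0.05). This small difference takes its sign from the scaling, since it was 0.14 when scaled to reads outside Alu elements. MER41A (-0.01), MER41B (-0.05), MER41C (-0.02) and MER41E (0.01) were level as well, and MER41-int gave -0.15 (-0.19 to -0.11). MER41D was lower in siStau1 DAC at -0.50 (-0.62 to -0.39). MER41G was lower at -0.55, but gave 0.26 without MER41G_1075. Over LTR12 and HERV9 the log2 ratio was 0.64, and over all LTR reads 0.07.

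Around these level sums, single copies lay past 2-fold in both directions. Of 860 MER41 copies with at least 20 reads in this pair, 152 (17.7%) were at least 2-fold higher in siStau1 DAC and 169 (19.7%) at least 2-fold lower. All repeat elements gave 15.5% and 14.8%, all LTR elements 18.3% and 17.2%, and other ERV1 elements 22.2% and 18.2%, so the MER41 shares are near the background. At a minimum of 100 reads in the pair, 8.81% of 227 MER41 copies were higher and 12.3% lower, with no background counted at that minimum. How much of this spread is counting error was not tested. With the authors' factors 121 copies were higher and 243 lower, and scaled to reads outside Alu elements 189 were higher and 113 lower. The shares over all repeat elements were not counted under these scalings, which move the median of all elements to -0.30 and 0.23. With reads scaled to the repeat total, the median log2 ratio of the MER41 copies was -0.14 (quartiles -0.76 and 0.59). MER41-int had 26 copies higher and 44 lower of 157, MER41A 64 and 43 of 314, and MER41B 36 and 57 of 268.

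The third pair differs in both the siRNA and the drug. Summed MER41 reads gave a log2 ratio of 0.41 (0.39 to 0.43) in siStau1 DAC over siLuc DMSO, against 0.38 for all LTR reads and 0.36 for other ERV1. Scaled to LTR reads the MER41 value was 0.03. MER41E (1.00), MER41C (0.71) and MER41-int (0.63) were above MER41B (0.41), MER41D (0.37) and MER41A (0.27), and MER41G was at -0.24. Of 791 copies, 236 (29.8%) were at least 2-fold higher in siStau1 DAC and 36 (4.55%) at least 2-fold lower. The background was 14.5% and 8.27% over all repeat elements, 27.7% and 4.85% over LTR elements and 26.4% and 4.69% over other ERV1, so MER41 again lay near LTR elements as a class. Scaled to LTR reads 146 MER41 copies were higher and 82 lower. The shares over all repeat elements were not counted on that scale, where the median of all elements was -0.34. The 3 pairs share libraries, so they are not independent of each other.

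Single copies show how uneven the family is. MER41A_3859_2 had 850, 801 and 972 reads, which is 11.9, 11.6 and 11.7 RPM. It was the top MER41 copy in siLuc DMSO and in siStau1 DAC, and its level was about the same in all 3 libraries. MER41B_4250_4, with 9.01, 8.53 and 10.2 RPM, was similarly level. MER41A_4015_3 had 421, 1232 and 645 reads, and MER41A_4015_2 had 401, 1076 and 947. These were the top 2 copies in siLuc DAC, with 17.9 and 15.6 RPM there against 5.89 and 5.61 in siLuc DMSO. Their names share a number, and whether they are parts of the same insertion is not given, so they need not be separate copies.

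The highest ratios of siLuc DAC over siLuc DMSO, among 173 copies with at least 100 reads in the pair, were in MER41-int and MER41B. MER41-int_12614 had 5, 109 and 37 reads, a log2 ratio of 4.37 (3.23 to 6.15). MER41B_1281 had 9, 100 and 14 reads, and MER41-int_12920_2 had 53, 507 and 272. In each of these siStau1 DAC lay between the other libraries. MER41B_1281 was also the lowest copy in siStau1 DAC over siLuc DAC at -3.06 (-4.03 to -2.29), followed by MER41B_4243, with 14, 109 and 24 reads, and MER41-int_6375, with 10, 82 and 26. MER41-int_2961, with 11, 75 and 162 reads, and MER41B_4041_3, with 9, 43 and 96, had the highest ratios of siStau1 DAC over siLuc DMSO among 193 such copies, at 3.60 and 3.13. The next was MER41-int_4688 at 2.50, with 14, 0 and 95 reads. In these 3 copies siStau1 DAC was the highest library. The lowest ratios of this pair were in MER41A and were smaller in size. MER41A_4563 had 80, 54 and 37 reads (-1.32), MER41A_2798 had 75, 31 and 40 (-1.11), and MER41A_4008_2 had 126, 55 and 72 (-1.02).

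Some copies were low in siLuc DAC alone. MER41-int_15649 had 108, 0 and 163 reads, so it was at least 34.7-fold lower in siLuc DAC than in siLuc DMSO and at least 45.1-fold lower than in siStau1 DAC, against a floor of 3 reads in the library and with the other library's reads taken as exact. With counting error in both libraries, the limits nearest 0 were log2 ratios of -4.80 for siLuc DAC over siLuc DMSO and 5.18 for siStau1 DAC over siLuc DAC. MER41A_3400_2 had 157, 1 and 244 reads, a log2 ratio of -6.66 (-12.56 to -4.74) in siLuc DAC over siLuc DMSO. These 2 copies had the highest ratios of siStau1 DAC over siLuc DAC among 227 copies with at least 100 reads in that pair, and MER41A_4723, with 86, 18 and 106 reads, came next at 2.26 (1.56 to 3.10). MER41B_2697 had 389, 72 and 288 reads, and MER41A_3289_4 had 726, 327 and 934. Of 357 MER41 copies with at least 20 reads in both siLuc DMSO and siStau1 DAC, 21 were at 0 in siLuc DAC (5.88%), against 2.15% of all repeat elements, 5.34% of LTR elements and 6.98% of other ERV1. They were 11 of 160 MER41A copies, 5 of 98 MER41B, 3 of 55 MER41-int, 1 of 12 MER41E and 1 of 6 MER41G. Those of MER41-int include MER41-int_15649 and MER41-int_15649_6, whose names share a number, so they need not be separate insertions. The same count for siLuc DMSO was 1 of 415, MER41B_3587_2 with 0, 36 and 20 reads, and for siStau1 DAC it was 0 of 301. Zeros of this kind were thus mostly in the siLuc DAC library, for MER41 as for other repeats, and with 1 library the library and the condition cannot be told apart.

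The copies at 0 carried few reads. They held 893 reads in siLuc DMSO, 2.45% of its MER41 reads, and 1041 in siStau1 DAC, 1.85%. Without copies at 0 in 1 library of the pair and at least 20 in the other, the summed log2 ratio was 0.52 in siLuc DAC over siLuc DMSO and -0.11 in siStau1 DAC over siLuc DAC.

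**Figure D3:**
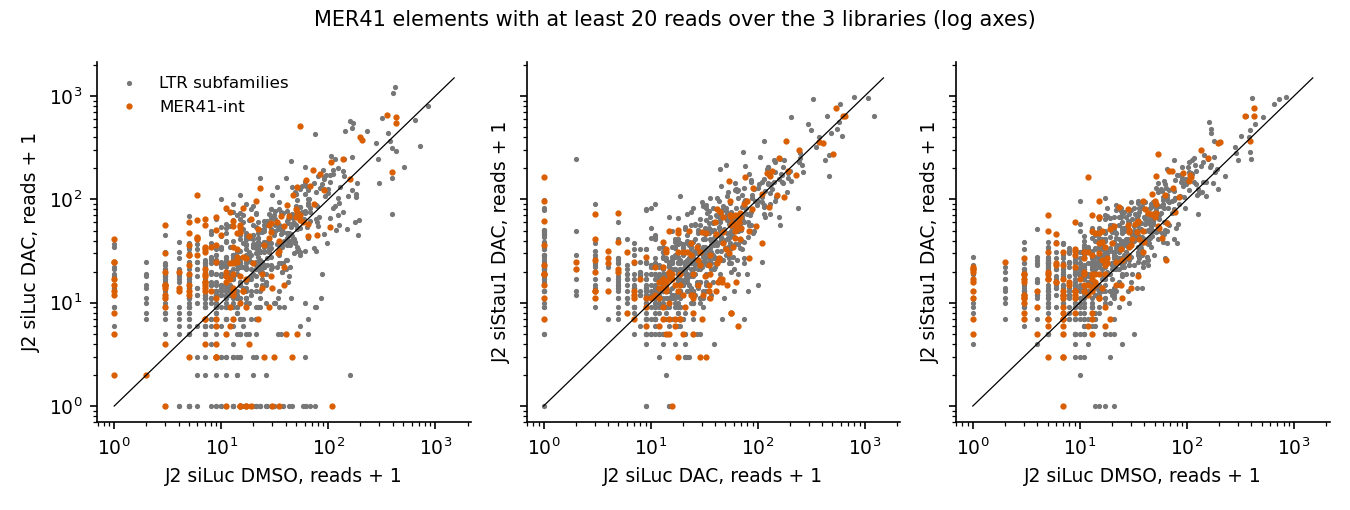
Reads plus 1 of each MER41 copy with at least 20 reads over the 3 J2 libraries, 1 library against another on log axes, with MER41-int in orange, LTR subfamilies in grey and a line where the raw reads are equal. Copies along the bottom of the left panel and the left edge of the middle panel have 0 reads in siLuc DAC.

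Total RNA gives the genes that MER41 and interferon signalling are linked to, as the authors' FPKM (fragments per kilobase of transcript, scaled to depth) for each group of 2 libraries, with no value per library. The authors' q-value under 0.05 is the call used. The labels do not say that the libraries of a group are separate cultures, so these q-values measure only the spread between libraries, which may be technical. In the authors' deposited table STAU1, the target of the knockdown, was at 35.5 FPKM with DMSO and 33.7 with DAC in siLuc cells, and at 30.0 and 27.1 in siStau1 cells. Its log2 ratio was -0.24 with knockdown in DMSO (q = 0.767) and -0.31 in DAC (q = 0.685), so lower STAU1 RNA was not called in the groups labelled siStau1. Of 7 epithelial and colon markers 5 reached 1 FPKM in every group, while VIL1 and CDX1 did not and CDX1 was listed at 0 in both DMSO groups. Of 10 markers of blood, connective tissue and vessel cells, at most 1 reached 1 FPKM in a group, COL1A1, and their summed level was 2.004 FPKM with DMSO and 12.3 with DAC in siLuc cells, and 1.33 and 9.37 in siStau1 cells.

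Genes with a nearby interferon-responsive MER41 copy, as known from other work, were AIM2, APOL1, IFI6 and SECTM1. Their promoters are shown to set an interferon motif beside the values, since the MER41 copies themselves have no positions here. RefSeq promoters, from 250 bases before to 50 after the start on GRCh38.p14, matched 3 of the 4 genes: IFI6 at chr1:27672143-27672442, AIM2 at chr1:159076717-159077016 and SECTM1 at chr17:82333717-82334016, all on the minus strand. Capitals mark matches, on either strand, to the core of the interferon-stimulated response element (ISRE).
IFI6: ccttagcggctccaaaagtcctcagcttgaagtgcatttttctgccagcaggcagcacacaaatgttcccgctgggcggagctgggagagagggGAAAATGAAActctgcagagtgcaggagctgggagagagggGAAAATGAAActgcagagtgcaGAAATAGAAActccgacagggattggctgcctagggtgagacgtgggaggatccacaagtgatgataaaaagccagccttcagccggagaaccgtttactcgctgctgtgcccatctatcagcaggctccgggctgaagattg
AIM2: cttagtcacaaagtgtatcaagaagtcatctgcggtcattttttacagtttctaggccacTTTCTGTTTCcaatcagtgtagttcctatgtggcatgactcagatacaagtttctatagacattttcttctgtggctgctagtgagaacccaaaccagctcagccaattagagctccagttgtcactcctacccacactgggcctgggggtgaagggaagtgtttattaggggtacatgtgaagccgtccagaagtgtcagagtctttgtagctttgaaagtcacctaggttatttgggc
SECTM1: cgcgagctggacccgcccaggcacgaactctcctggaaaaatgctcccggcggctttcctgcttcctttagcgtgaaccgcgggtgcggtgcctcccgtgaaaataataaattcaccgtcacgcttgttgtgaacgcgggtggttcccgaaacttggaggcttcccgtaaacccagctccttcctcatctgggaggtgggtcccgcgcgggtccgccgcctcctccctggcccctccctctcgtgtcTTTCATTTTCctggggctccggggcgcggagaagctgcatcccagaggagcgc
IFI6 had 3 matches: GAAAATGAAA begins 156 and again 115 bases before the start, and GAAATAGAAA begins 93 bases before it. AIM2 had 1, TTTCTGTTTC, at 190 bases before the start, and SECTM1 had 1, TTTCATTTTC, at 3 bases before it. Of 35116 RefSeq promoters of this length 1255 (3.57%) held the ISRE core. A match is a description of the sequence.

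IFI6, an interferon-induced mitochondrial protein that limits apoptosis, was the most abundant of the 4 and rose with DAC and fell with knockdown. In the authors' deposited table it was at 752 FPKM with DMSO and 1669 with DAC in siLuc cells, and at 150 and 675 in siStau1 cells. Its log2 ratio, with 0.1 FPKM added, was 1.15 with DAC in siLuc (q = 0.0109), 2.17 with DAC in siStau1 (q = 0.00162), -2.33 with knockdown in DMSO (q = 0.00162) and -1.31 with knockdown in DAC (q = 0.00162). The siStau1 DMSO group was the lowest and the siLuc DAC group the highest. FPKM summed over all 58699 genes had the same lowest and highest groups, at 967545 in siStau1 DMSO and 1.79e+06 in siLuc DAC. That sum was 1.13e+06 in siLuc DMSO and 1.49e+06 in siStau1 DAC. Centred on the GC content of transcripts (described below), the IFI6 ratio for DAC in siLuc was 0.48, and the others were 1.65, -2.04 and -0.94.

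APOL1, a trypanolytic apolipoprotein, had the same lowest and highest groups as IFI6. In the authors' deposited table it was at 1.20 FPKM with DMSO and 20.9 with DAC in siLuc cells, and at 0.0770 and 7.04 in siStau1 cells. The log2 ratios were 4.01 with DAC in siLuc (q = 0.00162), 5.33 with DAC in siStau1 (q = 0.00293), -2.88 with knockdown in DMSO (q = 0.00917) and -1.55 with knockdown in DAC (q = 0.00162). Both DMSO groups were thus below both DAC groups. SECTM1, a secreted and transmembrane ligand on immune and epithelial cells, was at 9.06 FPKM in siLuc DMSO and 14.3 with DAC, and at 4.03 in siStau1 DMSO and 8.91 with DAC. It was not called in the authors' deposited table in any of these comparisons, and its log2 ratio for DAC in siLuc went from 0.65 to -0.40 when centred on GC content. AIM2, a sensor of cytosolic DNA, was listed in that table at 0 in both DMSO groups, at 0.248 FPKM in siLuc DAC and at 0.217 in siStau1 DAC, and the authors did not test it.

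Counted as a list, 2 of the 3 tested genes were called higher with DAC in siLuc, where 8.71% of all 17504 tested genes were higher and 4.78% lower. With DAC in siStau1 2 were called higher, against 4.56% higher and 2.89% lower of all tested genes. With knockdown 2 were called lower in DMSO, against 0.333% of all tested genes higher and 0.466% lower, and 2 were called lower in DAC, against 0.434% and 0.469%. Over the 4 genes the log2 ratios had medians of 1.48, 1.92, -1.74 and -0.99 in these comparisons, beside medians of 0.23, 0.11, -0.02 and -0.14 over all genes tested. The called genes were IFI6 and APOL1 in each of the 4 comparisons, which share their groups. With q-values adjusted within each comparison alone, in place of over all of the authors' comparisons, 1 gene was called lower with knockdown in DMSO and 0 with knockdown in DAC. The share of all tested genes was not counted at that adjustment. Gene ratios moved with the GC content of transcripts, with bin medians from -0.89 at the lowest GC to 1.19 at the highest for DAC in siLuc, while for knockdown in DAC they went from 0.57 to -0.64. Centred on 20 GC bins the list medians were 1.43, 1.90, -1.47 and -0.71.

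The receptors and JAK-STAT factors that carry the interferon signal to such LTRs were mostly not called. Of 15 genes 2 were called higher and 1 lower with DAC in siLuc, and 1 higher with DAC in siStau1. Of all tested genes 8.71% were called higher and 4.78% lower in the first comparison, and 4.56% and 2.89% in the second. With q-values adjusted within the comparison alone, 6 of 15 were called for DAC in siLuc. The share of all tested genes was not counted at that adjustment, so the shares above are not its background. In the authors' deposited table STAT2, a transcription factor of type I interferon signalling, rose with DAC, from 22.6 to 52.8 FPKM in siLuc (q = 0.0142) and from 13.3 to 32.2 in siStau1 (q = 0.0142). SOCS3, a feedback inhibitor of JAK-STAT signalling, rose from 6.77 to 18.2 FPKM in siLuc (q = 0.00632). Centred on GC content, the log2 ratio for DAC in siLuc went from 1.41 to 0.53 for SOCS3 and from 1.22 to 1.09 for STAT2. IFNGR1, the ligand-binding chain of the interferon-gamma receptor, fell with DAC in siLuc from 14.5 to 4.88 FPKM (q = 0.0194), and was higher with knockdown in DAC, at 14.3 FPKM (q = 0.0214), a call that was not made with q-values adjusted within that comparison alone. With knockdown in DMSO Cuffdiff's q-values called 0 of 15, and 1 had an unadjusted p-value under 0.05. The list medians were 0.31, 0.46, -0.27 and -0.13 for DAC in siLuc, DAC in siStau1, knockdown in DMSO and knockdown in DAC.

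Of 14 target genes of interferon signalling, 6 of 13 tested were called higher with DAC in siLuc: MX1, GBP1, GBP2, TAP1, IFITM1 and ISG15. With DAC in siStau1 6 of 14 were called higher, with IFI44L in place of GBP1. Of all tested genes 8.71% and 4.56% were called higher in these comparisons. Cuffdiff's q-values called 0 lower in either, with 1 and 0 genes lower at an unadjusted p-value under 0.05. With knockdown in DMSO 5 of 12 tested were called lower, namely ISG15, IFITM1, IFI44L, TAP1 and IFIT1. With knockdown in DAC 3 of 14 were called lower, namely MX1, IFITM1 and ISG15. Of all tested genes 0.466% and 0.469% were called lower in these comparisons. Cuffdiff's q-values called 0 higher with knockdown, and 0 were higher at an unadjusted p-value under 0.05. With q-values adjusted within each comparison alone, 3 targets were called lower in DMSO and 0 in DAC, with no share of all tested genes counted at that adjustment. By direction alone, 12 of 14 were higher with DAC in siLuc and 14 of 14 in siStau1, against 57.1% and 54.1% of all tested genes. Lower with knockdown were 13 of 14 in DMSO and 12 of 14 in DAC, against 51.3% and 58.1%. The list medians were 0.85, 2.44, -1.70 and -0.74. Centred on GC content, the log2 ratio of ISG15 for DAC in siLuc went from 1.79 to 0.74, while the list median of that comparison went from 0.85 to 1.01. TAP1, a peptide transporter of antigen presentation, was at 39.5 FPKM with DMSO and 126 with DAC in siLuc cells, and at 15.7 and 66.7 in siStau1 cells, in the authors' deposited table, and rose with DAC in both siRNA backgrounds (q = 0.00162 in each). GBP2, an interferon-gamma-induced GTPase, rose from 0.707 to 8.51 FPKM with DAC in siLuc (q = 0.00415) and from 0.369 to 5.28 in siStau1 (q = 0.0470). MX1, an antiviral GTPase, rose from 3.74 to 266 FPKM in siLuc (q = 0.00162), and fell with knockdown in DAC to 118 (q = 0.00525). CXCL10 and OAS1 were not called in any of the 4 comparisons. IFIT1 was called lower with knockdown in DMSO, from 207 to 79.4 FPKM (q = 0.0393). With DAC it was lower in siLuc, at 83.6 FPKM (q = 0.119), and higher in siStau1, at 125 FPKM (q = 0.531), and neither was called. Some of the authors' loci span several genes, such as IFIT1 with IFIT3 and TAP1 with PSMB9.

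**Figure D4:**
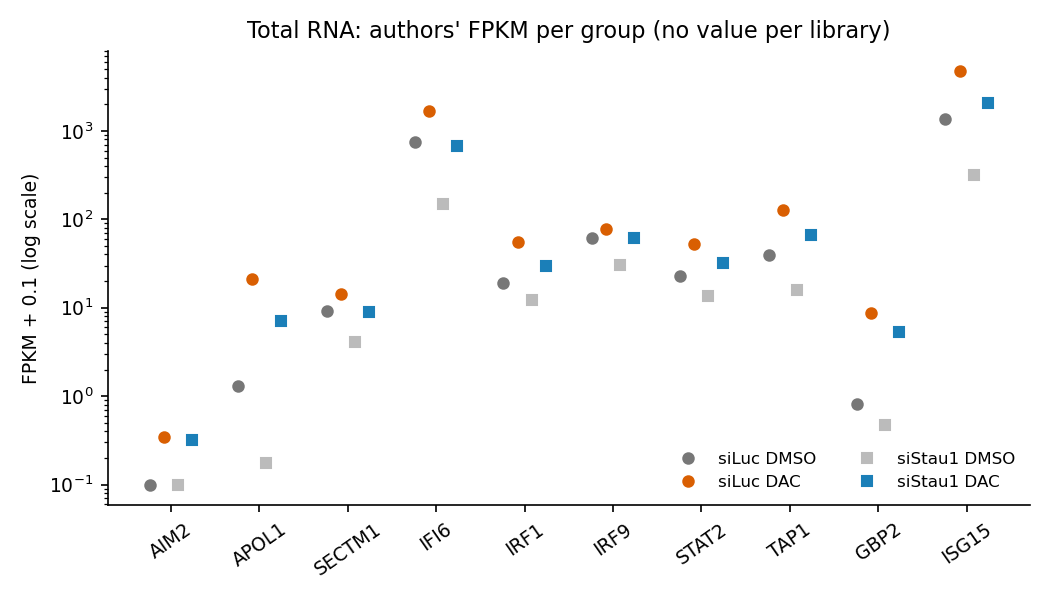
The authors' FPKM plus 0.1 (log axis) of MER41-linked genes, JAK-STAT factors and interferon target genes, with 1 point per total RNA group and no error, since the table gives no value per library. The genes shown were picked from the lists. Each of them is lowest in siStau1 DMSO and highest in siLuc DAC, as is FPKM summed over all genes, except that AIM2 is at 0 in both DMSO groups. Other genes of the lists do not keep this order. IFNGR1 was highest in siStau1 DMSO (21.5 FPKM) and lowest in siLuc DAC (4.88), and IFIT1 was highest in siLuc DMSO (207).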

How the data were processed

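Repeat elements: per the file headers the authors deposited 1 table per pair of J2 libraries, with a value per element and library. In the deposited siLuc DMSO column each value is a count with 1 added. For siLuc DAC and siStau1 DAC the authors multiplied that sum into a signal, by 1.92 and 1.27, and the origin of these factors is not given in the sources used here. Dividing each column by its minimum and taking off 1 gave whole reads for 100% of values (tolerance 1e-06). In siLuc DMSO, 815 MER41 copies had an even number of reads up to 6 and 273 an odd number up to 5. Should both mates have been counted, the intervals are too narrow. Reads have no molecular identifiers. The authors also deposited a ratio per element and a test score per gene, per the file headers, and neither was used. The submitters' processing notes name HISAT2 2.1.0, featureCounts, DESeq 1.36.0, Cuffdiff 2.2.1, Cuffnorm 2.2.1, bcl2fastq 2.20 and the build hg38, without the role of each. How reads of near-identical copies were shared is not given, so the split among copies and subfamilies is uncertain.

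Ratios used reads scaled to each library's repeat total, with 0.5 reads added per copy, over copies with at least 20 reads in the pair, and sums used all copies. Share intervals are Wilson's at 95%, and ratio intervals are exact (Clopper-Pearson) at 95%. The ratio intervals use the reads as counted, without the 0.5 added, so for a single copy they are not built around the printed ratio. With 1 J2 library a condition no count model was fitted.

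Total RNA: the authors deposited group FPKM, p-values and q-values in Cuffdiff's layout, per the file headers. Depth is unknown, and no value per library was used. Log2 ratios here add 0.1 FPKM, which understates changes of low genes. GC content came from GENCODE release 29 transcripts.

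The members, gene lists and tests were chosen with earlier results of these data known. Named copies were the 3 with most reads in each library, the 3 highest and 3 lowest by ratio in each pair among those with at least 100 reads in the pair, and those at 0 in 1 library with at least 100 in each other. MER41B_3587_2, MER41G_1075, MER41-int_15649_2 and MER41-int_15649_6 were named after their values were seen. All genes of 3 lists were counted except 1, which is not reported here, and those named in the text were picked from them. Alternatives were other scalings, read minimums, reads added, pseudocounts and q-value limits. Code was tested on simulated data. Python 3.11.15, numpy 2.4.6, scipy 1.17.1, pandas 2.3.3 and matplotlib 3.10.9 were used.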

Additional observations from a re-analysis of the deposited data

How the results depend on the processing

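No paired analysis was possible because the total RNA table gives 1 value per group and each J2 condition has 1 library, and a fit with a replicate block or without a replicate needs more. Settings without copies at 0, and the GC centring, were chosen after seeing the data. Sequence reads on near-identical copies, single J2 libraries and unknown total RNA depth limit the values.

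MER41 made up 0.120%, 0.134% and 0.148% of reads outside Alu in siLuc DMSO, siLuc DAC and siStau1 DAC, 0.950%, 1.07% and 0.973% of LTR reads, and 3.47%, 4.23% and 3.58% of ERV1 reads. Without the top copy it was 0.0498%, 0.0700% and 0.0667% of repeat reads.

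For siLuc DAC over siLuc DMSO the summed MER41 log2 ratio was 1.37 with the authors' factors, 0.16 scaled outside Alu, 0.17 scaled to LTR reads and 0.52 without copies at 0. The copy median was 1.56, 0.35 and 0.36 under the 3 scalings. Copies higher and lower were 508 and 56 with the authors' factors, 610 and 315 of 1552 at a minimum of 5 reads, and 56 and 18 of 173 at 100 reads. MER41A reversed to -0.034 and -0.021 outside Alu and on the LTR scale, and MER41G to -0.020, -0.0072 and, without its top copy, -0.33.

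For siStau1 DAC over siLuc DAC the sum was -0.39 with the authors' factors, 0.14 outside Alu, -0.14 on the LTR scale and -0.11 without copies at 0. The median was -0.46 with the authors' factors, 0.069 outside Alu and -0.029 at 5 reads. Copies higher and lower were 454 and 423 of 1704 at 5 reads, and 20 and 28 of 227 at 100 reads. Outside Alu MER41-int reversed to 0.061 and MER41B to 0.16, MER41A and MER41C, whose counting intervals held 0, went to 0.19 and 0.18, and MER41G was 0.26 without its top copy.

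For siStau1 DAC over siLuc DMSO the sum was 0.98, 0.30 and 0.034 under the authors' factors, outside Alu and on the LTR scale, and the median 1.06, 0.38 and 0.11. Copies higher and lower were 422 and 14 with the authors' factors, 146 and 82 on the LTR scale, 598 and 257 of 1670 at 5 reads, and 30 and 3 of 193 at 100 reads. MER41A was -0.10 and MER41D -0.011 on the LTR scale, and MER41G 0.32 with the authors' factors. Scalings shift all ratios of a pair by a constant, and read minimums change how many copies are counted.

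The median of the MER41-linked genes was 0.88 and 2.63 with 1 and 0.01 FPKM added for DAC in siLuc, 1.57 and 3.34 for DAC in siStau1, and -1.02 with 1 FPKM for knockdown in DMSO. GC centring gave -1.47 and -0.71 for knockdown in DMSO and in DAC. Calls were 1 for DAC in siLuc at a q-value under 0.01, and 1 and 0 for knockdown in DMSO and DAC with q-values adjusted within the comparison. For receptors and JAK-STAT factors, calls for DAC in siLuc were 1 at 0.01 and 6 adjusted within the comparison. At 0.01 they were 0 for DAC in siStau1 and 0 for knockdown in DAC, also 0 adjusted within the comparison. GC centring gave medians of -0.13 and -0.017 for knockdown in DMSO and in DAC. For the interferon target genes the median was 1.01 centred on GC for DAC in siLuc, 2.03 with 1 FPKM added for DAC in siStau1, and -1.34 and -1.88 with 1 and 0.01 FPKM for knockdown in DMSO. Their calls at 0.01 were 3 for knockdown in DMSO and 1 in DAC, and adjusted within the comparison 3 and 0. Where a value changed beyond its spread, the cause was not tested.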

Other observations

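The row next to a MER41 copy was also looked at, after its values were seen. The order of rows is not stated in the sources used here, so a neighbouring row need not be a neighbour in the genome. Of the 1015 MER41 copies with at least 20 reads over the 3 libraries, 711 (70.0%) had at least 20 reads in the 2 adjacent rows together, against 8.17% of the 6242 copies with none. Over all repeat elements the same shares were 73.2% and 7.35%, so MER41 was not apart in this.

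With reads scaled to the repeat total, the median ratios of adjacent rows were smaller in size than those of MER41, as for other LTR elements. The median log2 ratio of siLuc DAC over siLuc DMSO was 0.73 for 518 MER41 copies with enough reads in both, and 0.07 for their neighbours. It was 0.71 and 0.17 for other ERV1 elements, 0.65 and 0.25 for all LTR elements, and 0.11 and 0.16 for all repeat elements. For MER41 copies and their neighbours it was 0.52 and 0.01 in siStau1 DAC over siLuc DMSO (n = 527). In siStau1 DAC over siLuc DAC it was -0.19 and 0.07 (n = 599). Scaling to reads outside Alu elements adds 0.21 to both of these last medians, so which is smaller in size depends on the scaling. Across copies, Spearman's rho between a copy and its neighbours was 0.33 (n = 518), 0.43 for siStau1 DAC over siLuc DAC (n = 599) and 0.12 (n = 527), beside 0.39, 0.49 and 0.10 for other ERV1 elements, as a description, since the points share libraries and depth.

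Single copies showed both patterns. MER41A_3400_2, with 157, 1 and 244 reads in siLuc DMSO, siLuc DAC and siStau1 DAC, stood between an AluSg4 row with 228, 10 and 231 reads and a MER96 row with 345, 1 and 450, so all 3 rows were low in siLuc DAC. MER41A_4015_2 and MER41A_4015_3 stood on either side of a single AluY row with 577, 823 and 651 reads. MER41-int_15649, at 0 in siLuc DAC alone, had adjacent rows with at most 1 read in any library. Rows elsewhere whose names share its number were also low in siLuc DAC. MER41-int_15649_2 had 50, 4 and 73 reads, and MER41-int_15649_6 had 34, 0 and 61.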
